A study of Homo sapiens with 33 samples.

Results

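The 10 genes described here encode the cohesin complex, the proteins that fix it on replicated DNA, and the securin and separase that control its cleavage. They are SMC1A, SMC3, RAD21, STAG1, STAG2, ESCO2, CDCA5, SGO1, PTTG1 and ESPL1, chosen by name and matched by symbol to 10 of the 78932 Ensembl gene identifiers of the deposited tables. All 10 passed the filter on low values, a mean of at least 1 TPM (a read count per unit of gene length, scaled to the same sum in each library). RNA was read in 15 libraries of HepG2, an established line from a human hepatocellular carcinoma. Cell-cycle sorting gave 12 of them, from 6 fractions that the labels name G1, S1, S2, S3, S4 and G2, with 2 libraries each (replicates 2 and 3). Unsorted cells of the same line, called bulk here, gave 3 libraries. The other 18 of the 33 samples were Repli-seq libraries, which are not analysed here. No fraction carried a treatment or an engineered allele. Per the labels' protocols, sorted RNA was prepared with a stranded kit for small amounts of total RNA and bulk RNA with a stranded kit for mRNA, and both kinds are labelled nuclear RNA. The labels name no separate cultures, so a p-value here measures the spread of these libraries alone, and that spread may be technical.

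Cohesin is a ring of SMC1A, SMC3 and the kleisin RAD21, to which either STAG1 or STAG2 binds. The ring is loaded on DNA before replication and holds the sister chromatids together after it. ESCO2 acetylates SMC3 during replication and so establishes cohesion, and CDCA5 (sororin) then keeps the release factor WAPL away from the ring. In mitosis SGO1 (shugoshin) protects centromeric cohesin, while PTTG1 (securin) holds the protease ESPL1 (separase) inactive until anaphase, when ESPL1 cuts RAD21. The genes of many mitotic regulators are transcribed in step with the cell cycle, through CHR elements and CCAAT boxes in their promoters, and many S phase genes through E2F sites.

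RefSeq promoter windows of the build GRCh38.p14, 250 bases before to 50 after a gene's first listed start, were matched for 8 of the 10 genes. RAD21 and ESCO2 were not matched. The stretches below run from 140 bases before the start to 10 bases into the transcript. They are shown because CDCA5, SGO1, ESPL1 and PTTG1 varied together across the sorted libraries, and SMC1A and SMC3 stand beside them as ring subunits. Capitals mark the motifs searched on both strands: the CHR with the letters TTTGAA and also TTCGAA, the CCAAT box with the letters CCAAT, which read ATTGG on the other strand, and the E2F site (TTTCCCGC, TTTGGCGC, TTTCGCGC or TTTGCCGC).
CDCA5 (chr11:65084031-65084180, minus strand): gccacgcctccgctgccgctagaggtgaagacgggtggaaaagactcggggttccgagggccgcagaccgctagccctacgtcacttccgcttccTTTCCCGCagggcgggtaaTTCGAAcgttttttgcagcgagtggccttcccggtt
SGO1 (chr3:20186197-20186346, minus strand): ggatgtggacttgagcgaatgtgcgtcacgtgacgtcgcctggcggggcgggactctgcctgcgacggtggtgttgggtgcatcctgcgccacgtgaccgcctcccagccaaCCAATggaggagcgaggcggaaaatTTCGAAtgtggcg
ESPL1 (chr12:53268159-53268308, plus strand): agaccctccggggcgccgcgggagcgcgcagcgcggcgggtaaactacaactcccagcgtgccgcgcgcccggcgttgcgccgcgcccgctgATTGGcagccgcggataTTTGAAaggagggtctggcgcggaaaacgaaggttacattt
PTTG1 (chr5:160421715-160421864, plus strand): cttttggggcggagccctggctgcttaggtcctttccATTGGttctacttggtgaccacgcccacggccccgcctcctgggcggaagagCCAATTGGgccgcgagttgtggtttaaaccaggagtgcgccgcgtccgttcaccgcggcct
SMC1A (chrX:53422719-53422868, minus strand): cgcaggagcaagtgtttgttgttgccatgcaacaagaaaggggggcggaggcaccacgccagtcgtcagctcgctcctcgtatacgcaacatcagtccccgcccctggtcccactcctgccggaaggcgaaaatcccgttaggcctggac
SMC3 (chr10:110567555-110567704, plus strand): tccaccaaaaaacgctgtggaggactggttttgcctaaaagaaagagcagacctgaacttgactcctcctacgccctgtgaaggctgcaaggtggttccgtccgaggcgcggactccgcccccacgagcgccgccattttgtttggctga

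Among 27305 promoter windows of this length, 16.6% held a CHR match, 35.7% a CCAAT box and 3.33% one of the E2F letters. CDCA5 had a CHR match that begins at position -26 from its start, behind an E2F match at -45. SGO1 had a CHR match at -3 behind a CCAAT box at -28, and ESPL1 had a CHR match at -31 behind a CCAAT box at -48. In these 3 promoters the CHR letters lay close to the start, with a second motif upstream. How many of all windows share that arrangement was not counted. PTTG1 held 3 CCAAT boxes, at -103, -51 and -48, of which the last pair overlap as CCAATTGG, and no CHR match. SMC1A had none of these motifs in its window. SMC3 had a CHR match at -151, outside the stretch shown. STAG1 had 2 CCAAT boxes, at -241 and 1, and an E2F match at -183, and STAG2 had a CCAAT box at -157. These matches are descriptions of letters, and PTTG1 and SGO1 have further annotated starts that were not searched.

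The libraries differed in depth and in what RNA they held. Read counts recovered from the steps of the TPM values came to 6129026 to 18485359 per sorted library, the deepest being S4 replicate 3, and to 22340963 to 24423744 per bulk library. The share of TPM in protein-coding genes was 12.8% ± 1.504 in the sorted libraries (SD, n = 12), far below the 77.1% ± 0.434 of the bulk libraries (n = 3). Of 8 hepatocyte and HepG2 markers, 7 had a mean of at least 1 TPM in both kinds of library, while no gene of the 4-gene fibroblast, endothelium and leukocyte lists did, and these summed to at most 0.804, 3.19 and 0.774 TPM in a sorted library. The fractions were checked with 4 G2/M genes (CCNB1, PLK1, CDC20 and TOP2A), whose summed level was 48.8 to 60.0 TPM in G1, 40.8 to 79.3 in S1, 92.5 to 153 in S2, 168 to 213 in S3, 179 to 272 in S4 and 104 to 277 in G2. The 4 G1/S genes CCNE1, CCNE2, CDC6 and MCM5 summed to 40.3 to 90.5 TPM in G1, to 22.3 to 51.4 in S4 and to 33.0 to 85.1 in G2. G2 replicate 2 was the G2 library at the low end of both ranges.

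The ring subunits SMC1A, SMC3 and RAD21 were present in every sorted fraction. SMC1A (chromosome X, 53374149 to 53422728) ranged from 14.0 to 23.1 TPM over the 12 sorted libraries with a median of 17.7. SMC3 (chromosome 10, 110567695 to 110606048) ranged from 6.19 to 11.7 TPM with a median of 7.86. RAD21 (chromosome 8, 116845934 to 116874776) ranged from 5.66 to 10.6 TPM with a median of 7.22. Most pairs of fractions overlapped in these genes. The exceptions were S1, which lay below G1, S2 and S3 for SMC1A and below G1, S2, S4 and G2 for RAD21, G1, which lay below S4 for RAD21, and S3, which lay below G1 for SMC3. The highest value of each gene was in G2 replicate 3. The widest gap between fraction means on the log2(TPM + 1) scale was 0.31 for SMC1A, 0.18 for SMC3 and 0.47 for RAD21. Per unit of length, SMC1A RNA stood at 219% ± 22.3 of SMC3 RNA in the sorted libraries (SD, n = 12), and RAD21 at 93.5% ± 19.2.

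STAG1 and STAG2 are the alternative subunits that bind the ring. STAG1 (chromosome 3, 136336236 to 136752378) ranged from 6.95 to 17.1 TPM with a median of 11.3. STAG2 (chromosome X, 123960560 to 124102656) ranged from 4.32 to 6.83 TPM with a median of 5.40. STAG1 was the higher of the pair in all 12 sorted libraries, and its share of the STAG1 and STAG2 sum was 67.0% ± 4.46 (SD, n = 12), from 59.6% to 74.5%. In G1 the share was 66.9% in replicate 2 and 67.3% in replicate 3, and in S4 it was 65.9% and 74.5%. The fraction ranges of this share overlapped. STAG2 overlaps the lncRNA STAG2-AS1, as RAD21 does RAD21-AS1.

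**Figure D1:**
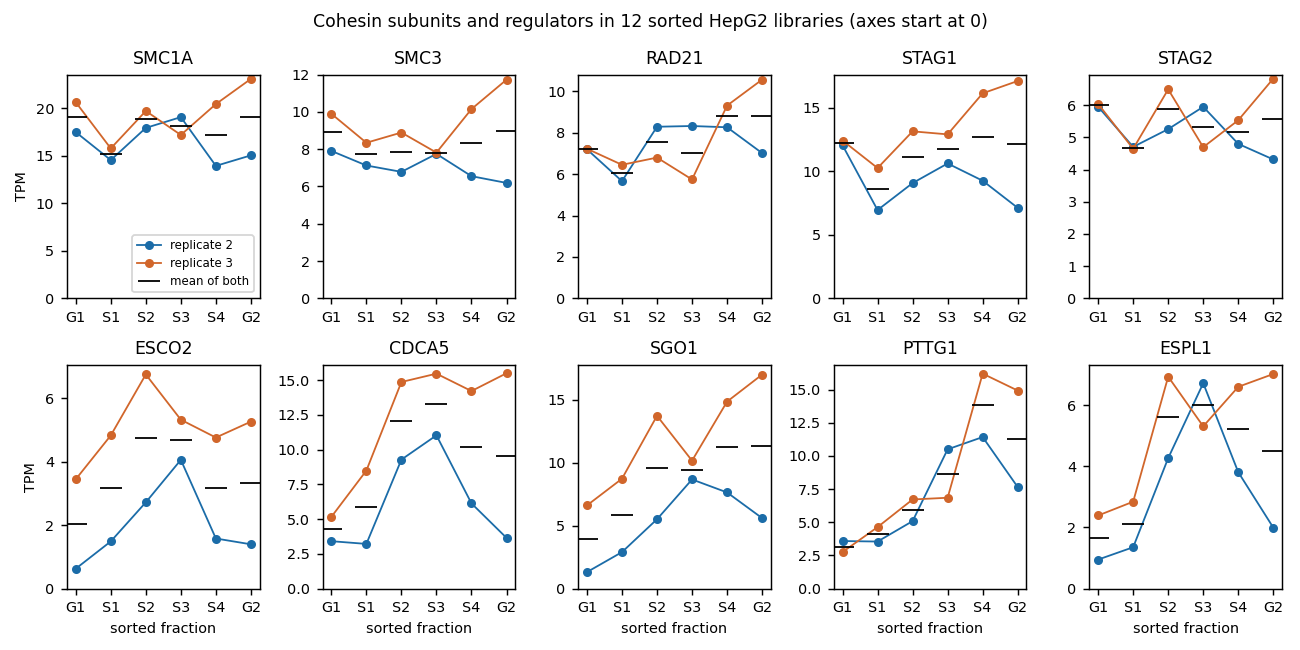
Level of each gene in TPM (y axes start at 0) in the 6 sorted fractions (x axis), with replicate 2 and replicate 3 joined by lines and the mean of both as a bar. The upper row holds the 5 subunits, and the lower row the 5 regulators, whose G1 mean is the lowest of the 6 fraction means for every gene.

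ESCO2 (chromosome 8, 27771974 to 27819660), the acetyltransferase of SMC3, had the lowest mean of the regulators in sorted cells. In replicate 2 it stood at 0.626 TPM in G1, 1.49 in S1, 2.72 in S2, 4.06 in S3, 1.58 in S4 and 1.40 in G2. In replicate 3 it stood at 3.45 TPM in G1, 4.83 in S1, 6.76 in S2, 5.33 in S3, 4.77 in S4 and 5.27 in G2. Both series were lowest in G1 and peaked in the middle of S, at S3 in one and S2 in the other, and replicate 3 was higher in every fraction. Both G1 libraries lay below both S3 libraries, and G1 overlapped the other 4 fractions. The lowest value rests on 29 reads. ESCO2 overlaps CCDC25 and PBK in the annotation, and the sources used here do not say how the counting treated strand.

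CDCA5 (chromosome 11, 65061093 to 65084040), the sororin gene, followed a similar course at higher levels. In replicate 2 it read 3.41 TPM in G1, 3.21 in S1, 9.29 in S2, 11.0 in S3, 6.13 in S4 and 3.65 in G2. In replicate 3 it read 5.16 TPM in G1, 8.50 in S1, 14.9 in S2, 15.5 in S3, 14.2 in S4 and 15.5 in G2. Values were low in G1 and S1 of replicate 2 and in G1 of replicate 3, and the replicates parted in G2, where replicate 2 was back near its G1 level and replicate 3 was at its maximum. CDCA5 overlaps NAALADL1.

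SGO1 (chromosome 3, 20160593 to 20186886), the protector of centromeric cohesin, was lowest in G1 in both replicates. In replicate 2 its level was 1.31 TPM in G1, 2.89 in S1, 5.50 in S2, 8.66 in S3, 7.63 in S4 and 5.59 in G2. In replicate 3 its level was 6.60 TPM in G1, 8.72 in S1, 13.7 in S2, 10.2 in S3, 14.8 in S4 and 17.0 in G2. The G2 level was 4.29 times the G1 level in replicate 2 and 2.57 times in replicate 3, yet G1 of replicate 3 lay above S1, S2 and G2 of replicate 2. SGO1 overlaps the lncRNA SGO1-AS1.

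PTTG1 (chromosome 5, 160421855 to 160428744), the securin gene, peaked in S4 in both replicates and had the closest replicates among the regulators. In replicate 2 it measured 3.58 TPM in G1, 3.54 in S1, 5.08 in S2, 10.5 in S3, 11.4 in S4 and 7.65 in G2. In replicate 3 it measured 2.75 TPM in G1, 4.63 in S1, 6.71 in S2, 6.84 in S3, 16.2 in S4 and 14.9 in G2. The mean levels ran in the order S4, G2, S3, S2, S1, G1. The S4 level was 3.22 times the S1 level in replicate 2 and 3.50 times in replicate 3, and the G2 level was 2.14 and 5.42 times the G1 level. Both S4 libraries lay above all libraries of G1, S1, S2 and S3, while G2 overlapped S3. The near-identical copy PTTG3P had at most 4 reads in any library, and PTTG2 was above 0 only in S4 replicate 3, at 0.321 TPM.

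ESPL1 (chromosome 12, 53268299 to 53293638), the separase gene, peaked in the middle of S or later. In replicate 2 it was at 0.948 TPM in G1, 1.35 in S1, 4.27 in S2, 6.72 in S3, 3.81 in S4 and 1.99 in G2. In replicate 3 it was at 2.39 TPM in G1, 2.84 in S1, 6.93 in S2, 5.31 in S3, 6.60 in S4 and 7.02 in G2. The libraries of G1 and S1 all lay below those of S2, S3 and S4, and G2 replicate 2 lay among the G1 and S1 values. Neither PTTG1 nor ESPL1 overlaps another RefSeq gene.

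Over the 17022 genes tested in the sorted libraries with limma on log2(TPM + 1), none of the 10 genes passed the adjusted threshold of 0.05 in any of 5 comparisons among the fractions. The share of all genes called was 0.0176% for any difference among the 6 fractions, 0% for S (the mean of S1 to S4) against G1, 0.00587% for G2 against G1, 0.00587% for G2 against S and 0% for the slope from S1 to S4. The counts of the 10 genes were thus read against a background in which almost nothing passed. At an unadjusted p below 0.05, 891 genes (5.23%) differed in S against G1 and 277 (1.63%) were higher in S, among them PTTG1 and ESPL1. In G2 against G1, 469 (2.76%) differed and 250 (1.47%) were higher in G2, among them PTTG1 alone of the 10. The same unadjusted count was 500 (2.94%) for the slope, 375 (2.2%) of them upward, and 470 (2.76%) for any difference, with PTTG1 alone of the 10 in each, and 289 (1.7%) for G2 against S, with none. Every sample is a population of cells, in which fewer cells of a type and less RNA per cell cannot be told apart.

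The 5 regulators had higher means in S than in G1, by similar amounts, though the adjusted p of each was 0.816 in limma. The S mean lay above G1 by 1.14 ± 0.56 log2 units for SGO1 (SE), 1.06 ± 0.40 for ESPL1, 1.01 ± 0.28 for PTTG1, 1.00 ± 0.50 for CDCA5 and 0.77 ± 0.54 for ESCO2. The 95% interval ran from 0.38 to 1.64 for PTTG1 and from 0.16 to 1.95 for ESPL1, and for the other 3 it included 0, as in ESCO2 from -0.44 to 1.99. Without G1 replicate 2 the difference was 0.05 for ESCO2 and 0.28 for SGO1. That fit sets G1 replicate 3 alone against S libraries of both replicate numbers. Within replicates 2 and 3, the mean of the other 5 fractions, G2 included, lay 0.93 and 0.51 above G1 for ESCO2. For SGO1 it lay 1.55 and 0.83 above G1. The calls depended on the model: a limma voom fit on recovered reads with the replicate number as a term, chosen after seeing the data, called all 5 regulators higher in S, with adjusted p from 0.001404 to 0.04747, beside 2.2% of genes called in either direction. With the same term on log2(TPM + 1), limma called none of them. The 5 subunits differed between S and G1 by -0.17 to 0.01, with 95% intervals that together ran from -0.91 for STAG1 to 0.56 for the same gene. The median over the 10 genes was 0.39, and over all genes tested it was -0.20. With median-ratio scaling the median of all genes moved to -0.03 and the signs of SMC1A, SMC3, STAG1 and STAG2 turned, to 0.01 to 0.06, so the direction for these 4 depended on the scaling.

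**Figure D2:**
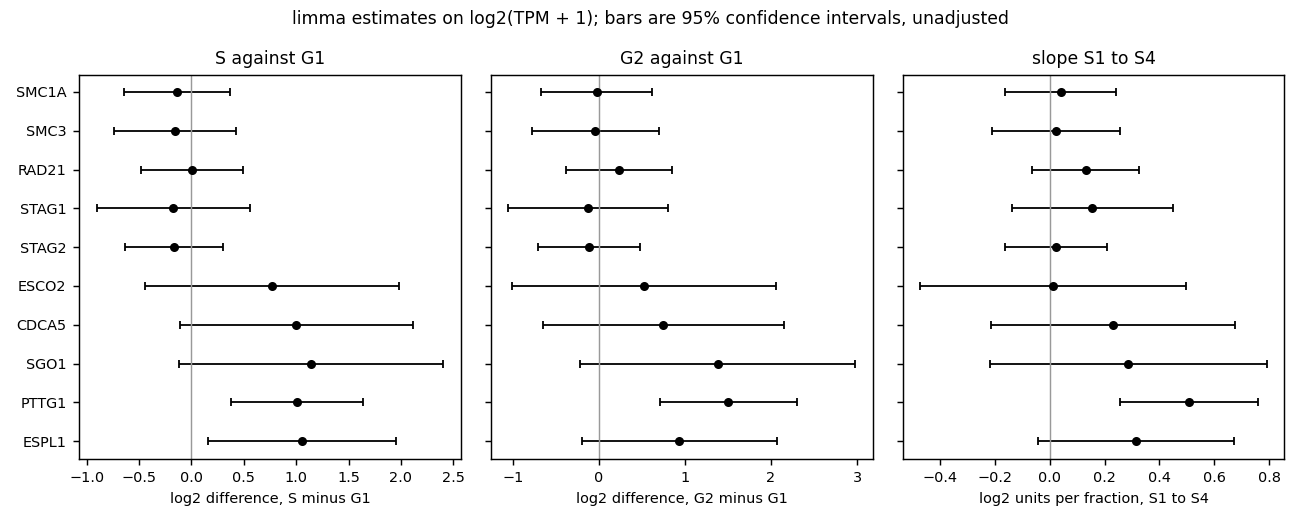
Differences between sorted fractions in log2 units with 95% intervals (not adjusted), for S minus G1, G2 minus G1 and the slope per fraction from S1 to S4, over 12 libraries. The subunits lie near 0 in each panel, and PTTG1 is the gene whose interval lies above 0 in all 3.

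G2 against G1 gave the widest difference of the 10 genes to PTTG1. Its G2 mean lay 1.501 ± 0.36 log2 units above G1 (SE), with a 95% interval from 0.70 to 2.30 and an adjusted p of 1 in limma. SGO1 differed by 1.38 ± 0.71, ESPL1 by 0.93 ± 0.51, CDCA5 by 0.75 ± 0.63 and ESCO2 by 0.53 ± 0.69. The subunits differed by -0.13 (STAG1) to 0.23 (RAD21). For CDCA5 and ESCO2 the direction turned when a single library was left out. The difference was -0.16 for CDCA5 and -0.17 for ESCO2 without G2 replicate 3, and -0.20 for ESCO2 without G1 replicate 2. Such a fit sets a single replicate number against both, and replicate 3 was higher in all 6 fractions for both genes. Within each replicate number G2 lay above G1. The ratio in replicates 2 and 3 was 1.07 and 3.01 for CDCA5, and 2.23 and 1.53 for ESCO2. Without G2 replicate 3 the difference was 1.06 for PTTG1 and 0.22 for ESPL1, and without G1 replicate 2 it was 0.52 for SGO1. All 5 subunits were above 0 without G2 replicate 2 and below 0 without G2 replicate 3, as in STAG1 at 0.45 and -0.70.

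Of the 10 genes PTTG1 had the steepest estimate along S phase. The PTTG1 level differed by 0.51 ± 0.11 log2 units per fraction from S1 to S4 (SE). The 95% interval ran from 0.25 to 0.76, with an adjusted p of 0.859 in limma. Outside the 10, SGO2 of the cohesin pathway had a slope of 0.51 ± 0.19 (SE). The median slope was 0.07 over the other pathway genes tested and 0.49 over the mitotic genes, both described below. ESPL1 had a slope of 0.31 ± 0.16, SGO1 of 0.29 ± 0.23, CDCA5 of 0.23 ± 0.20 and ESCO2 of 0.01 ± 0.22. Without S1 replicate 2 the slope was 0.054 for CDCA5 and 0.089 for SGO1. That fit leaves replicate 3 alone in S1, and replicate 3 was higher in every fraction for both genes. In replicates 2 and 3 the S4 level was 1.91 and 1.67 times the S1 level for CDCA5, and 2.64 and 1.70 times for SGO1. The subunit slopes lay between 0.02 and 0.16, and the median over all genes tested was 0.04. From S to G2 the regulators parted in sign, with 0.50 for PTTG1 and 0.24 for SGO1 against -0.25 for CDCA5, -0.25 for ESCO2 and -0.13 for ESPL1. Except for PTTG1, the sign of these values turned when a G2 library was left out. Such a fit sets a single replicate number in G2 against both in S. Replicate 3 was higher in all 6 fractions for SGO1, CDCA5 and ESCO2, and in 5 for ESPL1. Without G2 replicate 3 the SGO1 difference was -0.49, and without G2 replicate 2 it was 0.66 for CDCA5, 0.45 for ESCO2 and 0.58 for ESPL1. The PTTG1 difference was 0.055 without G2 replicate 3.

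For several of the genes the 2 libraries of a fraction lay far apart. For ESCO2, CDCA5 and SGO1 replicate 3 was above replicate 2 in all 6 fractions, by a median of 1.19, 0.86 and 1.25 log2 units. SMC3 and STAG1 showed the same order by a median of 0.32 and 0.50, which makes 5 of the 10 genes, against 19.8% of all genes tested. The mitochondrial share of TPM moved with the replicate number: it was 8.66% to 16.7% in replicate 2 and 2.22% to 9.97% in replicate 3, lower in replicate 3 in all 6 fractions. The protein-coding share of reads was higher in replicate 3 in all 6, and the part of either share in these differences was not tested. PTTG1, RAD21 and STAG2 had replicate 3 higher in 4 fractions and lower in the other 2, and SMC1A and ESPL1 had it higher in 5. Within each replicate number, every other fraction was above G1 for ESCO2, SGO1 and ESPL1, 3 of the 10 genes, against 2.06% of all genes tested. Without regard to the number, no gene of the 10 had both G1 libraries below all 10 others, a pattern found in 0.576% of all genes.

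**Figure D3:**
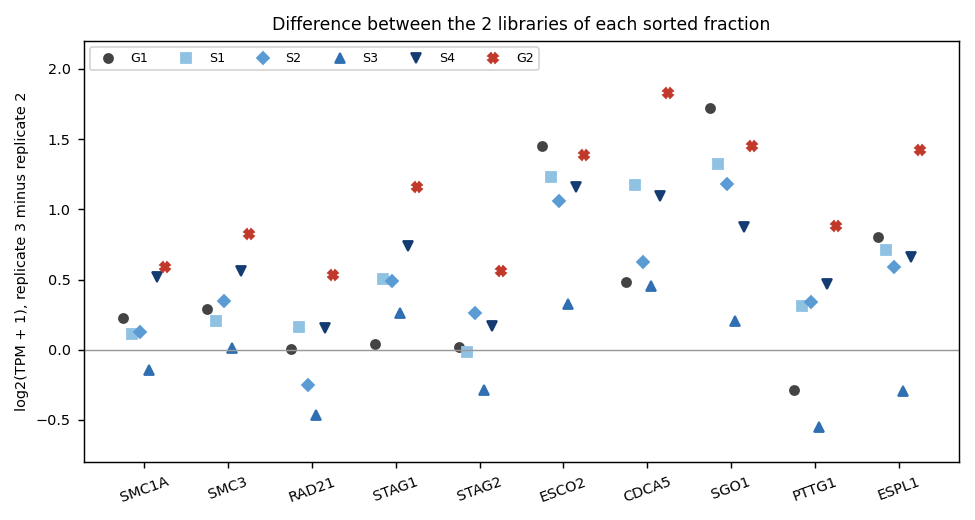
Replicate 3 minus replicate 2 on the log2(TPM + 1) scale (y axis) for each gene (x axis), with 1 symbol per sorted fraction. ESCO2, CDCA5 and SGO1 lie above 0 in all 6 fractions, and G2 (red crosses) is the highest or next to highest point for every gene.

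Ratios inside a library do not depend on the scaling between libraries. The level of each regulator was therefore set against the geometric mean TPM of SMC1A, SMC3 and RAD21, the core of the ring. PTTG1 stood at 30.0% ± 8.27 of the core in G1 (SD, n = 2), 45.6% ± 4.66 in S1, 57.0% ± 8.94 in S2, 86.2% ± 16.5 in S3, 128% ± 3.28 in S4 and 96.6% ± 11.99 in G2. Replicates were close, so that G1 did not overlap any other fraction and S4 lay above all of them. ESPL1 was at 15.2% ± 8.13 of the core in G1 and 23.1% ± 9.80 in S1, then 54.0% ± 16.1 in S2, 60.3% ± 3.43 in S3, 47.4% ± 7.91 in S4 and 36.2% ± 18.7 in G2. S2, S3 and S4 did not overlap G1 or S1.

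CDCA5 and ESCO2 had their highest mean ratio to the core in S3. CDCA5 was at 39.7% ± 7.89 in G1, 136% ± 46.5 in S3 and 75.6% ± 47.5 in G2 (SD, n = 2 each). ESCO2 was at 18.3% ± 17.0 in G1, 45.4% ± 25.9 in S2, 48.0% ± 14.3 in S3 and 26.6% ± 14.9 in G2. In replicate 3 the ESCO2 ratio was higher in S2 (63.7%) than in S3 (58.1%). SGO1 was at 35.5% ± 31.7 in G1, 101% ± 25.0 in S4 and 92.0% ± 39.0 in G2. The 2 libraries of G1 spanned 6.26% to 30.3% for ESCO2 and 13.1% to 57.9% for SGO1, while S3 spanned 37.9% to 58.1% and 80.8% to 111%, without overlap.

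**Figure D4:**
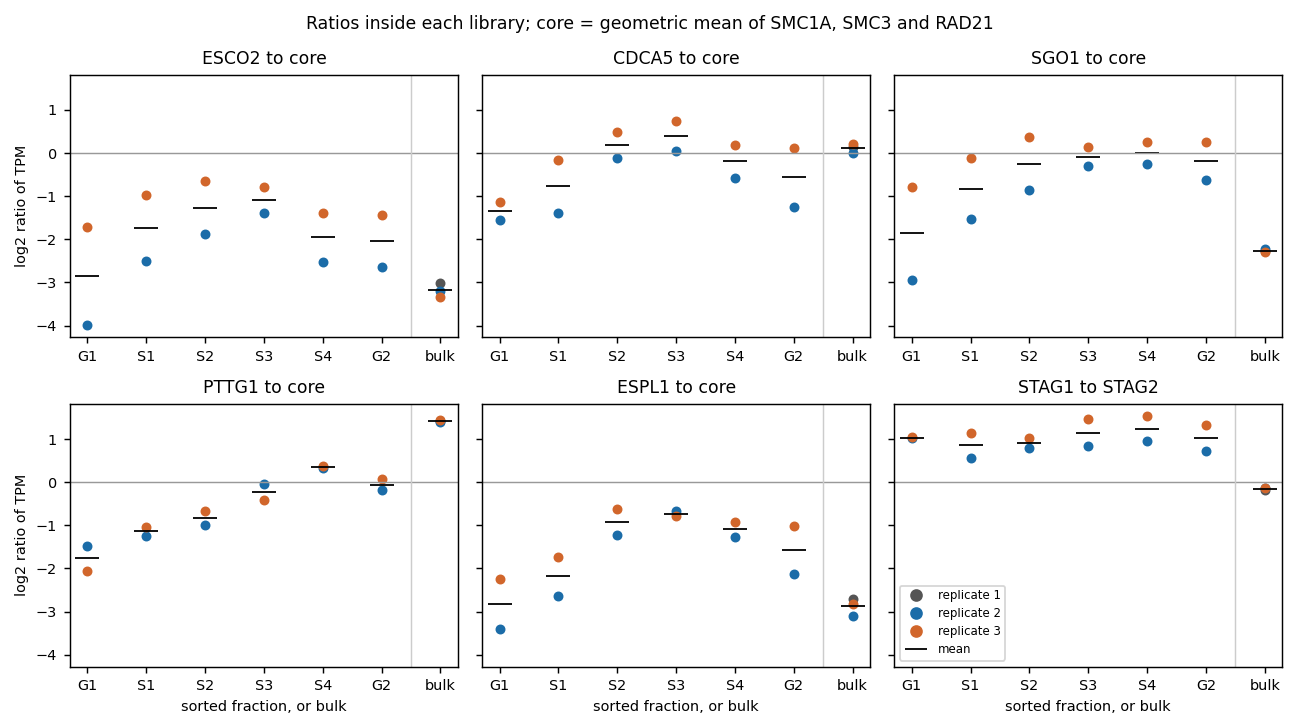
Log2 ratio of TPM (y axis) inside each library, for each regulator over the core (geometric mean of SMC1A, SMC3 and RAD21) and for STAG1 over STAG2, by sorted fraction and in bulk (x axis). Points are libraries coloured by replicate number and bars are means; PTTG1 is highest in S4 among the fractions and higher still in bulk, while STAG1 over STAG2 is above 0 in sorted cells and below it in bulk.

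Bulk libraries gave much higher TPM for most of these genes. PTTG1 was at 148, 156 and 153 TPM in the 3 bulk libraries and at no more than 16.2 TPM in any sorted library. RAD21 was at 77.2, 83.8 and 75.0 TPM in bulk, and CDCA5 at 61.1, 59.6 and 64.5. SGO1 was at 11.6, 12.8 and 11.3 TPM in bulk, inside its sorted range of 1.31 to 17.0. All sorted libraries lay below all bulk libraries for 7 of the 10 genes, against 54.3% of all genes tested, and the exceptions were ESCO2, SGO1 and ESPL1.

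In limma over 17174 genes, 80.9% of genes differed between the sorted and bulk libraries, and 57.8% were lower in sorted cells. Of the 10 genes 8 were called, all lower in sorted cells on the TPM scale. PTTG1 fell by 4.29 log2 units (SE 0.20, adjusted p = 2.087e-09), RAD21 by 3.23 (SE 0.15, 1.86e-09) and CDCA5 by 2.80 (SE 0.36, 1.822e-05). STAG2 differed by -2.33, SMC3 by -2.21, SMC1A by -1.64, STAG1 by -1.27 and ESPL1 by -0.91, the last with an adjusted p of 0.01328. ESCO2 (-0.84, adjusted p = 0.07365) and SGO1 (-0.63, adjusted p = 0.1814) did not pass in limma. The median was -1.92 over the 10 genes and -0.99 over all genes tested. Kit, sorting and cell number differ together between the 2 kinds of library and cannot be told apart.

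The share of TPM in protein-coding genes moved with this comparison, and rescaling turned most of the directions. With TPM recomputed over protein-coding genes, the median of the genes tested moved to 0.79. PTTG1 and RAD21 were still lower in sorted cells, by -1.88 (SE 0.15) and -0.79 (SE 0.12), while SGO1 (1.80), ESCO2 (1.40), ESPL1 (1.37), STAG1 (1.23) and SMC1A (0.90) were higher and passed in limma, and CDCA5 (-0.36), SMC3 (0.26) and STAG2 (0.07) did not pass. On this scale 7 of the 10 genes were called, beside 71.6% of the protein-coding genes tested. Under both scales PTTG1 and RAD21 therefore lay lower in sorted cells, and the direction of the other genes depended on the scale, CDCA5 apart, whose call was lost.

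**Figure D5:**
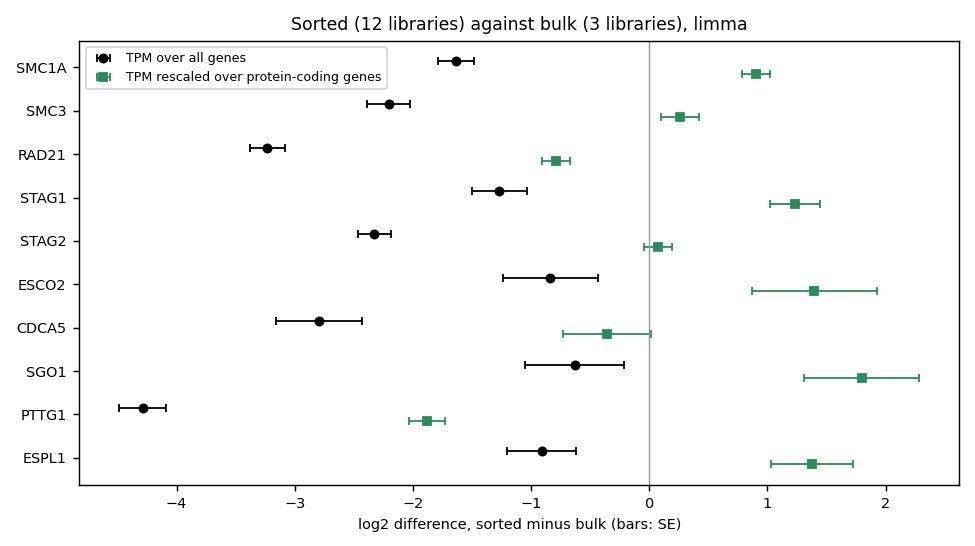
Sorted minus bulk in log2 units with SE bars (x axis) for each gene (y axis), from TPM over all genes (black) and from TPM rescaled over protein-coding genes (green). PTTG1, RAD21 and CDCA5 keep a negative estimate on both scales, and the other 7 genes move across 0.

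The proportions among the subunits also differed between the 2 kinds of library. STAG1 made up 47.4% ± 0.482 of the STAG1 and STAG2 sum in bulk (SD, n = 3), below the 59.6% of the lowest sorted library. RAD21 stood at 191% ± 6.98 of SMC3 in bulk and SMC1A at 139% ± 1.92, against 93.5% and 219% in sorted cells, again without overlap. Relative to the core, PTTG1 was at 267% ± 5.11 in bulk, above every sorted library, whereas SGO1 was at 20.8% ± 0.652, ESPL1 at 13.7% ± 1.84 and ESCO2 at 11.1% ± 1.27, each inside its sorted range. For these 3 genes the low end of that range was G1 replicate 2, and the next lowest sorted library stood at 34.5%, 16.1% and 16.1%, above all 3 bulk libraries. CDCA5 was at 108% ± 7.49, inside its sorted range of 34.1% to 169%.

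Across the 12 sorted libraries pairs of regulators and pairs of subunits had higher median correlations than mixed pairs, with exceptions. Pearson correlations of log2(TPM + 1), centred within each replicate number, had a median of 0.80 over the 10 pairs of regulators (0.43 to 0.94), 0.73 over the 10 pairs of subunits (0.57 to 0.87) and 0.24 over the 25 mixed pairs (-0.06 to 0.70). When not centred, the medians were 0.84, 0.73 and 0.51, so the mixed pairs lay closer to the others. RAD21 with PTTG1, a mixed pair, gave 0.70 both ways. Centred, RAD21 gave 0.68 with SMC1A and with SMC3, 0.70 with STAG1 and 0.57 with STAG2. Not centred, RAD21 gave 0.46 (SMC3) to 0.58 (SMC1A) with the other subunits. ESCO2 with PTTG1, both regulators, gave 0.43 centred and 0.36 not centred. The points share libraries and their scaling, so these values are descriptions. Among 6406 protein-coding genes with a mean of at least 5 TPM, the pair most like each regulator was CENPE and CCNB1 for PTTG1 (0.98 each), KIF22 and CIP2A for ESPL1 (0.99 each), CDK1 and NUF2 for SGO1 (0.98 each), RRM2 and DIAPH3 for ESCO2 (0.98 and 0.95), and H2AC14 and RAD54L for CDCA5 (0.97 and 0.95). CENPE is a kinetochore motor, CCNB1 is cyclin B1, RRM2 is a ribonucleotide reductase subunit and RAD54L acts in recombination. The subunits were most like ATN1 and LAMTOR4 (SMC1A, 0.96 and 0.95), PRKRA and TAX1BP1 (SMC3, 0.97 and 0.96), GTPBP2 and ZNF649 (RAD21, 0.94 and 0.92), PRKAR1B and ACAD9 (STAG1, 0.98 each) and C5orf24 and ZMYM3 (STAG2, 0.97 and 0.95). When not centred, ATN1 fell to 0.16, ZNF649 to 0.55 and PRKAR1B to 0.67, and the other genes named stayed at 0.82 or above.

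The other genes of the cohesin pathway gave a list of 21, of which 18 were tested and 3 meiotic genes (SMC1B, STAG3 and RAD21L1) lay below the filter. None of the 18 passed in any comparison among the sorted fractions, and their median in S against G1 was -0.17, beside -0.20 for all genes tested. In that comparison 7 lay above 0 and 11 below. The highest were SGO2 at 0.90 ± 0.48 log2 units (SE) and HASPIN at 0.56 ± 0.34. The 4 with the highest mean in sorted cells were TIMELESS and CHTF18, which act at the replication fork, the helicase DDX11 and the release factor WAPL. TIMELESS differed between S and G1 by 0.08 ± 0.48 log2 units (SE), CHTF18 by 0.53 ± 0.44, DDX11 by -0.18 ± 0.29 and WAPL by -0.18 ± 0.27. Against bulk, 13 of the 18 were lower in sorted cells on the TPM scale, beside 57.8% of all genes tested: the loaders NIPBL and MAU2, WAPL, PDS5A, PDS5B, ESCO1, SGO2, CTCF, DSCC1, TIMELESS, TIPIN, WDHD1 and HASPIN. CHTF18 (1.25), REC8 (0.86) and CHTF8 (0.66) were higher, and the list's median was -1.24 beside -0.99 for all genes. These directions hold for the TPM scale only, and rescaled values of the list are not given here. Rescaling over protein-coding genes took the median of the genes tested to 0.79.

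The 10 genes that act on securin, separase or protected cohesin in mitosis had larger median differences between fractions than the cohesin genes. Their median was 1.21 in S against G1 and 1.68 in G2 against G1, beside -0.20 and -0.08 for all genes tested, and none passed the adjusted threshold. The 4 with the highest mean TPM in sorted cells were AURKB, CCNB1, PLK1 and BUB1B. AURKB is a kinase of mitotic centromeres, CCNB1 the mitotic cyclin gene, PLK1 a kinase gene and BUB1B a checkpoint kinase gene. AURKB differed by 2.10 ± 0.43 log2 units in S against G1 (SE, adjusted p = 0.7151 in limma), PLK1 by 1.35 ± 0.36, CCNB1 by 1.28 ± 0.41 and BUB1B by 1.14 ± 0.47. CCNB1 and PLK1 had slopes over S1 to S4 of 0.70 ± 0.16 and 0.73 ± 0.14 per fraction, beside 0.51 for PTTG1. The other 6 were CDC20, FZR1, CDK1, BUB1, MAD2L1 and PPP2R1A. Of these CDK1 differed by 1.60 ± 0.70 in S against G1 (SE), BUB1 by 1.32 ± 0.49, CDC20 by 1.14 ± 0.55 and MAD2L1 by 0.52 ± 0.36. PPP2R1A, a scaffold subunit of the phosphatase PP2A, differed by -0.49 in S against G1 (95% interval -0.95 to -0.02). FZR1, an activator of the anaphase-promoting complex, differed by -0.04. On the TPM scale all 10 were called lower in sorted cells than in bulk, beside 57.8% of all genes tested, with a median of -2.55. Their values rescaled over protein-coding genes are not given here. That rescaling moved the median of the genes tested from -0.99 to 0.79.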

How the data were processed

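Per the submitters' processing notes, the build was hg38 and the tools were HISAT2, BWA, SAMtools, Trimmomatic and cutadapt, with no role or version. The sources used here do not name the program, annotation or strand setting behind the values per gene. The authors deposited log2 values, and these are log2(TPM + 1): undoing the logarithm gave sums of 1000000 in each of the 15 libraries. Positions and promoters are from RefSeq GRCh38.p14.

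From the TPM steps, whole reads were recovered for all 50310 genes that exceeded 0 in 3 or more libraries, with 99.5% of lengths whole within 0.01 base. A unit may be a read or a pair. No replicates agreed within sampling noise (chi-square per degree of freedom at least 2.85).

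limma 3.58.1 (R 4.3.3) with an intensity trend was fitted to log2(TPM + 1), which understates changes of low genes, in genes with a mean of at least 1 TPM. No term for the replicate was used, and p-values were adjusted by Benjamini-Hochberg over all genes tested. The 12 sorted libraries shared 1 fit, and all 15 shared another for sorted against bulk. The fit of G2 against G1 was tested on simulated counts that varied independently between libraries, with no difference between replicate numbers. That test does not cover the replicate differences seen here. Alternatives covered a pseudocount of 0.1, filters, scalings, limma's trend and array weights, recovered reads, a replicate term and leaving out libraries, and 2 were added after seeing the data. Named genes were the 10, the pathway genes called or among the 4 with the highest mean TPM, and the 2 most alike per gene. The genes and lists were chosen with earlier results of these data known.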

Additional observations from a re-analysis of the deposited data

How the results depend on the processing

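Of the alternatives, 213 counts of called genes or of called members of the 10 stayed equal or close to the main count. Another 13 moved further, 43 fell to 0 and 13 rose from 0. Of the single values, 685 kept their direction and side of the threshold or, for ratios inside a library, stayed within the SD. Another 31 turned in sign, 15 gained a call and 3 lost it. The differences of the 5 subunits between fractions were not in this tally. The counts among the sorted fractions were too small to be steady. Any difference gave 0 called genes with a mean of at least 5 TPM, with protein-coding rescaling and with voom on recovered reads. S against G1 gave 4 with a pseudocount of 0.1, 3 without a filter, 2 with median-ratio scaling and 1 without the trend. G2 against G1 gave 0 without a filter, with 5 TPM, with protein-coding rescaling, with array weights and with voom, and 106 in a fit of those groups alone. G2 against S gave 2 with the pseudocount and with median-ratio scaling, 28 without a filter, and 0 with 5 TPM, protein-coding rescaling, array weights and voom. The slope gave 1 with the pseudocount. Sorted against bulk gave 8947 with 5 TPM, where fewer genes were tested.

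Leaving out 1 library at a time gave 0 to 2 called genes for any difference, S against G1, G2 against G1 and G2 against S. Without a sorted library, a single replicate number in its fraction is set against both in the others. G2 against G1 ran from -0.16 to 1.66 for CDCA5 and from -0.20 to 1.25 for ESCO2. G2 against S ran from -1.17 to 0.66 for CDCA5, -0.94 to 0.45 for ESCO2, -0.84 to 0.58 for ESPL1 and -0.49 to 0.96 for SGO1. The ESCO2 slope ran from -0.17 to 0.20, and it was -0.028 with median-ratio scaling, -0.0030 with protein-coding rescaling and -0.019 with voom.

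For sorted against bulk, median-ratio scaling gave 0.29 for ESCO2, 0.26 for ESPL1, 0.63 for SGO1 and 0.070 for STAG1. Voom gave 0.58, 0.51, 0.94 and 0.30. Protein-coding rescaling gave 1.40, 1.37, 1.80 and 1.23, with 0.90 for SMC1A, 0.26 for SMC3 and 0.072 for STAG2. The cause was not tested.

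Replicate numbers 2 and 3 recur in every fraction, which leaves 2 same-numbered pairs per comparison, and the labels name no shared culture. Deviations from the fraction means correlated between same-numbered libraries at 0.31 to 0.38 over 15 pairs of fractions. A replicate block alone left the calls among fractions at 3, 0, 1, 1 and 0, with 0 of the 10 genes. With median-ratio scaling, a block added after seeing the data gave 5 for any difference, 2 for S against G1 and 0 for G2 against S, and -0.028 for the ESCO2 slope. A block on recovered reads with voom, also added then, gave 663 genes for any difference (4 of the 10), 373 for S against G1 (5), 102 for G2 against G1 (1, PTTG1), 0 for G2 against S and 731 for the slope (2, PTTG1 and ESPL1), with -0.075 for the ESCO2 slope. In that S against G1 fit 2.2% of genes were called, and the 5 were CDCA5 (1.39, adjusted p = 0.001404 in limma), ESPL1 (1.56, 0.004936), PTTG1 (1.44, 0.008525), SGO1 (1.35, 0.02031) and ESCO2 (1.11, 0.04747), all higher in S. The fewest reads in a sorted library were 29 for ESCO2 and SGO1 and 42 for PTTG1.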
